A study of Mus musculus with 24 samples.

Results

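Interferon-induced genes were followed in 4 tissues of mice whose RAP1 protein carries the I312R substitution, which keeps RAP1 from binding TRF2 and so from sitting at telomeres. The set was a list of 38 mouse genes chosen by name because interferons are known to induce them. A probe was found for 36 of them, among 21368 named genes on the array, and Mx1 and Mx2 had none. Of the 36, 35 were well above background on all 24 arrays and Tgtp1 was on 23, and all 36 passed the detection filter in every tissue. Liver, brain, heart and muscle came from the same 6 male mice, 3 wild-type (WT, labelled RAP1 WT) and 3 homozygous knock-in (Rap1 KI/KI, labelled RAP1 MUT). The knock-in was made with CRISPR/Cas9 in Terf2ip, the gene that encodes RAP1, and the line was backcrossed 4 times to C57BL6. Mouse 1 of each genotype was 5 months old, and mice 2 and 3 of each genotype were 2 months old. The knock-in is carried by every cell of the animal, and each sample was RNA of a whole tissue.

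Type I interferons (the interferon alphas and interferon beta) and type II interferon (interferon gamma) are secreted proteins that warn neighbouring cells of infection or damaged nucleic acid. Type I interferons act through the receptor IFNAR and the kinases JAK1 and TYK2, and lead to a factor containing STAT2 and IRF9 that binds the interferon-stimulated response element (ISRE). Interferon gamma acts through the receptor IFNGR and the gamma-activated site (GAS). The induced genes encode cytosolic sensors of RNA and DNA, transcription factors that renew the response, the ubiquitin-like protein ISG15 and its enzymes, antiviral effectors, and the GTPases of the GBP and IRG families. In liver much of this output is contributed by hepatocytes and Kupffer cells, and in brain microglia and endothelium are strong responders.

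Promoter sequence is shown for 6 members on which the results below turn or which stand for a role, because the ISRE is the feature that defines this response. Windows were taken from RefSeq on GRCm38.p6, and each runs 160 bases up to the transcription start, 5′ to 3′ on the gene's own strand. Capitals mark every match to the ISRE-like core GAAANNGAAA on either strand; on the opposite strand the core reads as its reverse complement.
Isg15 (ubiquitin-like modifier), chr4:156200819-156200978, minus strand: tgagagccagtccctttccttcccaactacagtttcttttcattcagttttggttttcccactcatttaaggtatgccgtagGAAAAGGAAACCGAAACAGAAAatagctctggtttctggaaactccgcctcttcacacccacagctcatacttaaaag
Ifit1 (binds foreign RNA caps), chr19:34640729-34640888, plus strand: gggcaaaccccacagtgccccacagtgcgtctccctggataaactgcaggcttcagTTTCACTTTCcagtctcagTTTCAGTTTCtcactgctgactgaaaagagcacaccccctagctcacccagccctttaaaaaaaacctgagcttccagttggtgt
Rsad2 (viperin), chr12:26456453-26456612, minus strand: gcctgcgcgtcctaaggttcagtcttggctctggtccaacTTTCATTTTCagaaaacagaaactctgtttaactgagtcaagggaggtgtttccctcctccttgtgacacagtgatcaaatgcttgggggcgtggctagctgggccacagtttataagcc
Bst2 (tetherin), chr8:71537473-71537632, minus strand: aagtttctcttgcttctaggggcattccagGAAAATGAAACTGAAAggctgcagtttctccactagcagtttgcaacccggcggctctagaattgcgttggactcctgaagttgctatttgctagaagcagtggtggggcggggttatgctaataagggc
Gbp2 (guanylate-binding protein), chr3:142620503-142620662, plus strand: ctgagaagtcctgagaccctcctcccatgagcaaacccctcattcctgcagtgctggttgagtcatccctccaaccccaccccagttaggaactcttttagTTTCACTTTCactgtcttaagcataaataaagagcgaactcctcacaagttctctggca
Irgm2 (immunity-related GTPase), chr11:58214817-58214976, plus strand: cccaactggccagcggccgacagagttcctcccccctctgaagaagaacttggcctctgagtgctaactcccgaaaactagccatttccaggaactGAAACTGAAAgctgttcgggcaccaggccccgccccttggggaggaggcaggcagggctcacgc
Over the wider window of 250 bases before to 50 after the start, the ISRE-like core was found in 17 of the 26 members that had a window (65.4%), against 3.99% of 27025 genes. The GAS-like core TTCNNNGAA was found on either strand in 7 of the 26 (26.9%), against 9.55% of all genes. Bst2, Gbp7, Ifitm3, Igtp, Irgm2 and Tgtp1 held both, and the matches overlapped each other in Bst2 and Ifitm3. No ISRE-like match lay in the windows of Cmpk2, Dtx3l, Herc6, Ifi44, Ifit2, Irf7, Irf9, Oasl2 and Xaf1. These are matches of letters in a window and were not measured as binding sites.

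Several members lie next to each other on GRCm38.p6. Ifit2, Ifit3 and Ifit1 span chr19:34550550-34650009, Gbp7, Gbp3 and Gbp2 span chr3:142530336-142638008, Igtp and Irgm2 span chr11:58199556-58222783, Rsad2 and Cmpk2 span chr12:26442743-26479837, and Parp14, Dtx3l and Parp9 span chr16:35831892-35972621. Tgtp1 with Tgtp2, Ifit3 with Ifit3b, and Gbp6 with Gbp10 are near-identical pairs, so a probe of the first may also read the second.

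A level below is a probe's processed signal on the log2 scale after subtracting the upper quartile (75th percentile) of the same array, so 0 is the brightness of an upper-quartile probe. Levels compare arrays for the same probe and do not compare genes. The 75th percentile ranged from 470.7 to 1389 intensity units, and between 56.5% and 72.7% of probes were well above background on an array. Marker genes listed for each tissue were high in their own tissue, with summed log2 levels of 10.7 to 11.7 for the liver list in liver, 8.13 to 8.35 for the brain list in brain, 10.5 to 11.4 for the heart list in heart and at least 11.6 for the skeletal muscle list in muscle. Terf2ip was well above background on every array, and its KI minus WT log2 difference was 0.12 in liver, -0.02 in brain, -0.41 in heart and -0.28 in muscle (exact permutation p from 0.2 to 0.9). A point mutation need not alter the level of its own mRNA, so this does not check the labels. Some arrays stood apart in markers of other cells. On the WT1 brain the liver list had a median deviation from the WT mean of 2.26. Alb was at 0.57 there against -5.80 and -6.04 in WT2 and WT3, and at -4.85, -5.90 and -3.86 in KI brains. Serpina1c was at 1.21 against -4.54 and -3.05 in WT2 and WT3, while Ttr, at 5.87 against 5.70 and 4.43, differed less. In muscle both KI1 and KI3 had high neutrophil sums, 6.54 and 3.67 against -0.33 to 1.47 in WT. Their heart-marker sums of 5.93 and 3.43 against 0.32 to 2.79 rested mostly on Myl2, at 5.83 and 3.27 against -0.63, 1.17 and 1.72. The median deviations of the heart list on these muscles were -0.12 and -0.18. In heart KI1 and KI3 had adipocyte sums of 8.57 and 9.35 against 7.83 to 7.93 in WT. On KI1 4 of the 5 markers, and on KI3 all 5, lay above all WT hearts. The KI2 heart had a sum of 8.14 but only 2 of 5 markers above, and its median deviation of 1.59 lay below the 1.65 of WT2. The WT heart sums rested mostly on Fabp4, and the WT1 heart was low in the other adipocyte markers, with a median deviation of -3.01. Its Adipoq was at -4.23 against 0.72 and -0.15 in WT2 and WT3. The heart marker Myl7 was at -2.41 on the WT1 heart against 6.64 and 7.47 in WT2 and WT3. The brain of KI3 is described with the results it touches. P-values measure the spread among 3 mice a group, of which 1 in each genotype was older. Each fit pools that spread over its groups.

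The first comparison asked how the genes differed among the 4 tissues of WT mice. Brain was the lowest tissue for 32 of the 36 members, and muscle for the other 4. Liver was the highest for 24, heart for 9, muscle for Gbp7 and Ifit3, and brain for Cmpk2. A difference anywhere among the tissues passed the test for 35 of 36 members, against 85.4% of all probes tested (limma F test, adjusted p under 0.05), a share so high over all probes that the direction tells more than the count.

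Brain stood below each of the other tissues. In liver against brain 33 members were higher and 0 lower, where 40.7% of all probes were higher and 30.1% lower, and the median log2 difference of the members was 3.17 against 0.33 over all probes. In brain against heart 0 were higher and 31 lower, with 25% and 34.1% of all probes, and a member median of -2.50 against -0.21. In brain against muscle only Cmpk2 was higher and 29 members were lower, with 25.8% and 36.3% of all probes, and a member median of -1.51 against -0.29.

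The other tissues lay closer together. In liver against heart 20 members were higher and 7 lower, with 27.7% and 25.9% of all probes, and the member median was 1.05. In liver against muscle 27 were higher and 0 lower, with 29.3% and 29% of all probes, and the median was 1.76. In heart against muscle 24 were higher and 2 lower, with 15.9% and 15.6% of all probes, and the median was 1.01. Slides held tissues unequally, and with the slide as a block the members called numbered 16 in place of 27 in liver against heart, 14 in place of 27 in liver against muscle and 12 in place of 26 in heart against muscle, while tissue and RNA kit cannot be told apart between brain or liver and heart or muscle.

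**Figure D1:**
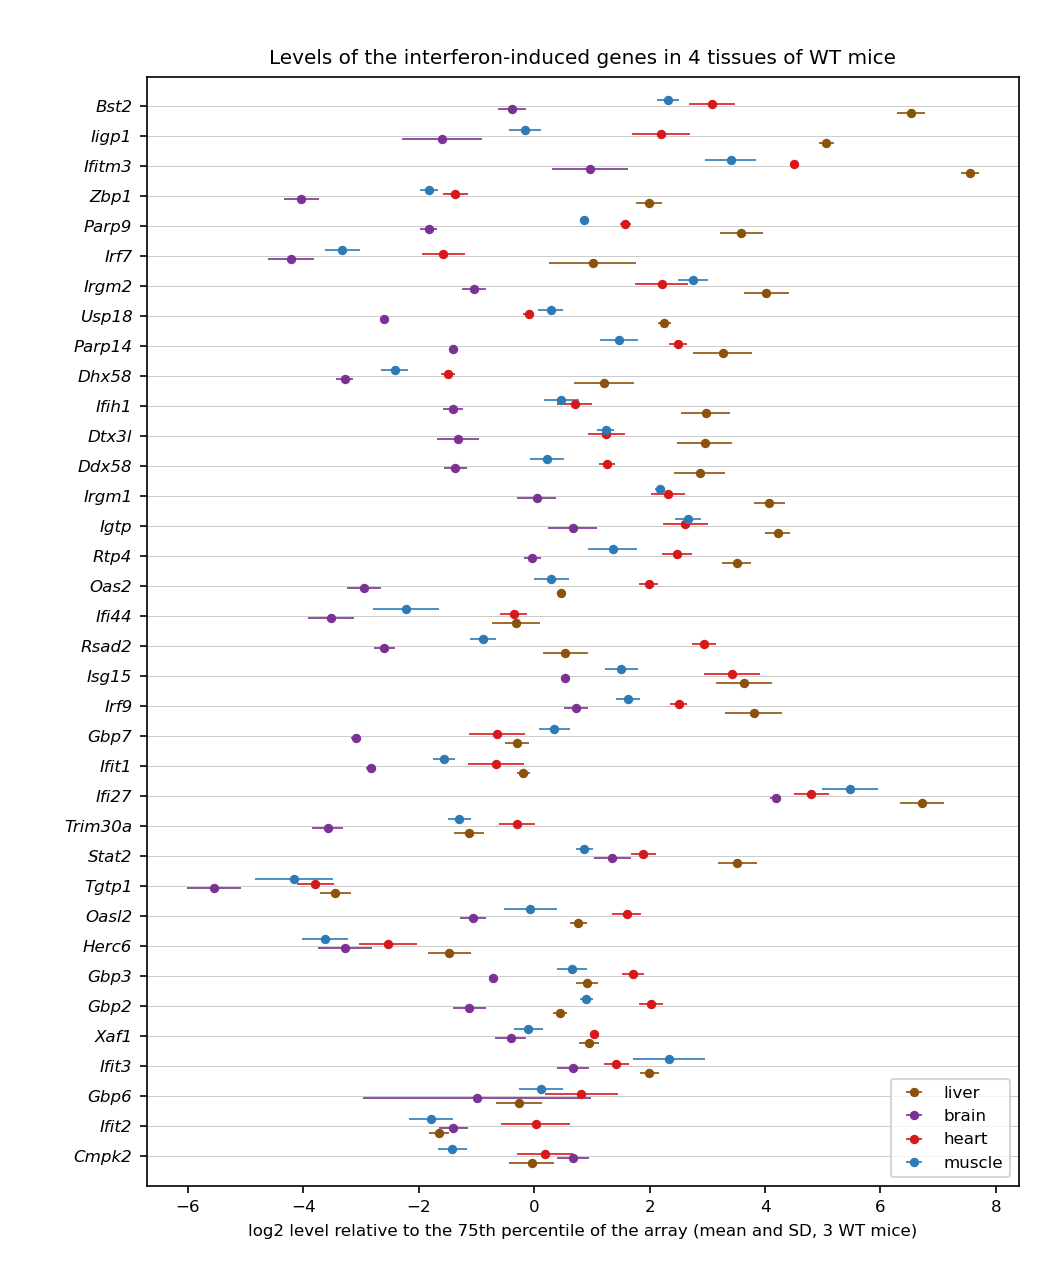
Level of each of the 36 members in 4 tissues of WT mice; the x axis is the log2 level scaled to the array's 75th percentile, points are means and bars SDs over 3 mice, and genes run from the largest liver minus brain difference at the top to the smallest at the bottom. Purple points (brain) lie to the left of the other colors for 32 members, and the brown points (liver) are farthest right for 24.

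The widest range belonged to Bst2, which encodes tetherin, a membrane protein that holds budding virions on the cell. Its WT levels were 6.80, 6.48 and 6.32 in liver, 2.77, 2.96 and 3.53 in heart, 2.10, 2.45 and 2.41 in muscle and -0.12, -0.60 and -0.43 in brain. The order liver, heart, muscle, brain held with no overlap between tissues, and liver exceeded brain by 6.91 (SE 0.25, limma adjusted p = 7.1e-10). The step from heart to muscle was the smallest, at 0.77 (limma adjusted p = 0.038).

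Ifitm3, whose product blocks the fusion of viruses in endosomes, had WT levels of 7.64, 7.36 and 7.63 in liver and 1.67, 0.36 and 0.87 in brain. Liver was higher by 6.58 (SE 0.32, limma adjusted p = 7e-09), and heart at 4.42, 4.56 and 4.53 and muscle at 3.15, 3.92 and 3.15 lay between. Iigp1, an IRG GTPase that attacks the vacuoles of intracellular parasites, was at 5.01, 5.21 and 4.98 in WT liver, and exceeded its brain level by 6.66 (SE 0.35, limma adjusted p = 1.2e-08). Zbp1, a sensor of Z-form nucleic acid that can start cell death, was at 2.13, 2.10 and 1.74 in WT liver and -4.03 ± 0.30 (SD, n = 3) in brain. Its liver level was higher by 6.02 (SE 0.23, limma adjusted p = 9.1e-10), whereas heart and muscle differed by 0.46 without passing the test (limma adjusted p = 0.15).

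Rsad2 did not follow the liver-first order. It encodes viperin, an enzyme that makes a chain-terminating nucleotide, and its WT levels were 3.14, 2.95 and 2.72 in heart, 0.97, 0.22 and 0.43 in liver, -1.06, -0.95 and -0.63 in muscle and -2.59, -2.78 and -2.42 in brain. Heart thus stood above every other tissue, with a brain minus heart difference of -5.53 (SE 0.24, limma adjusted p = 6.1e-09) and a liver minus heart difference of -2.40 (limma adjusted p = 6.1e-06). Cmpk2, its neighbour on chromosome 12 and a mitochondrial nucleotide kinase, was highest in brain at 0.67 ± 0.28 (SD, n = 3) and lowest in muscle at -1.67, -1.42 and -1.17. Brain exceeded muscle by 2.09 (SE 0.30, limma adjusted p = 8.4e-05), while liver minus brain was -0.71 (limma adjusted p = 0.051).

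Of the 36 members, 18 had their WT means in the order liver, heart, muscle, brain, among them all 4 sensors and all 3 members of the PARP and DTX3L complex. The median WT level of the 4 sensors (Ddx58, Ifih1, Dhx58 and Zbp1) was 2.43 in liver, -0.33 in heart, -0.80 in muscle and -2.34 in brain. The 3 members of the PARP and DTX3L complex, which modifies histones and viral proteins, had medians of 3.27, 1.58, 1.24 and -1.41 in the same order of tissues. The 5 IRG GTPases had medians of 4.07, 2.21, 2.19 and -1.04, though only 3 of the 5 kept this order and Igtp and Irgm2 were higher in muscle than in heart. The 4 guanylate-binding proteins had a median of 1.26 in heart, 0.50 in muscle, 0.09 in liver and -1.06 in brain. The antiviral effectors also had their highest median in heart, at 1.60 against 0.54 in liver, -0.07 in muscle and -1.06 in brain, and were split, with heart the highest tissue for 4 of the 9 and liver for 3. These medians order the tissues within a role and do not order the roles.

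Other named members filled in the pattern. Ifi27, a small protein of the mitochondrial and nuclear membranes, was at 6.79, 7.07 and 6.30 in WT liver, 5.93, 4.96 and 5.51 in muscle, 4.49, 4.82 and 5.10 in heart and 4.28, 4.19 and 4.08 in brain. Irf7, the factor that amplifies type I interferon transcription, was at 1.01 ± 0.75 (SD, n = 3) in liver and -3.81, -4.24 and -4.60 in brain. Both had liver as the highest tissue and brain as the lowest. Irgm2 was at 4.02 ± 0.39 (SD, n = 3) in liver, 2.50, 2.74 and 3.02 in muscle, 2.21 ± 0.46 in heart and -1.04 ± 0.20 in brain. Herc6, the mouse ligase that attaches ISG15, was at -3.72, -3.97 and -3.18 in muscle, below its -1.47 ± 0.37 in liver. Tgtp1 was faint throughout, with WT levels from -3.50, -3.68 and -3.14 in liver to -6.03, -5.09 and -5.52 in brain.

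The narrowest ranges belonged to Xaf1 and Ifit3. Xaf1, an antagonist of the inhibitor of apoptosis XIAP, ranged over 1.44 between tissue means, and neither liver against heart (-0.08, limma adjusted p = 0.77) nor brain against muscle (-0.31, limma adjusted p = 0.24) passed the test. Ifit3, a partner of IFIT1 on viral RNA, ranged over 1.67, and liver differed from neither heart (0.57, limma adjusted p = 0.13) nor muscle (-0.34, limma adjusted p = 0.35) beyond the test. Their tissue levels therefore formed an upper and a lower pair for Xaf1 and, for Ifit3, an order in which the 3 upper tissues were only partly separated.

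In Rap1 KI/KI mice brain was again low. Between KI tissues 30 members were higher in liver than in brain (42.3% of all probes), 28 were lower in brain than in heart (35.1%), 18 were lower in brain than in muscle (35.9%) and 7 were higher in heart than in muscle (13.2%). The member medians were 2.62, -1.71, -1.19 and 0.79. The F test passed for 32 of 36 members, against 88.6% of all probes. The KI counts come from their own fit, and the difference between genotypes was tested as an interaction, given below.

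The second comparison asked whether the genes differed between Rap1 KI/KI and WT mice within each tissue. No member passed limma's adjusted p of 0.05 in liver, brain, heart or muscle, and neither did any other probe (0% in each tissue). The smallest adjusted p among members was 1 in liver, 1 in brain, 0.65 in heart and 0.94 in muscle. At an unadjusted p under 0.05 the members numbered 0 in liver (2.13% of all probes), 0 in brain (2.62%), 2 in heart (7.51%) and 1 in muscle (2.48%), shares near or below those of all probes. The interaction of genotype and tissue passed for 0 members and 0% of probes, and at an unadjusted p for 0 members and 2.93% of probes. Its smallest p values among the members were 0.055 for Usp18 and 0.12 for Bst2 (limma).

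Brain had the largest differences without reaching the test. KI minus WT was above 0 for 34 of the 36 members, with a median of 0.74 against -0.05 over all probes, and the median was 0.23 without KI3, with 32 of 36 above 0. In 9 members all 3 KI brains lay above all 3 WT brains (4% of all probes), and in 0 members below (3.75%). These were Ifit1, Ddx58, Usp18, Isg15, Dhx58, Ifih1, Parp14, Ifi27 and Gbp3. An exact two-sided permutation test gave p = 0.1 for each, the smallest that 3 against 3 mice allow. The count was 18 without WT1 (9.48% of all probes) and 24 without KI1 (7.24%), the mice of 5 months, and it was 9 without KI3 (12.2%). The WT1 brain also stood apart in liver markers, and their part was not tested. In a fit of all 24 arrays with the mouse as a block, 16 members in brain had an unadjusted p under 0.05, against 2.52% of all probes. In that fit 0 passed the adjusted test, and both member counts were the same without the block. It takes 1 spread per probe over all 8 groups, and spreads differed between groups. For Usp18 the SD was 1.33 in KI brains and 0.05 to 0.57 in the other groups. The count of 16 therefore does not rest on the spread among brains alone.

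Usp18 and Ifit1 had the largest differences of the 36 in brain. Ifit1 was at -2.72, -2.87 and -2.89 in WT brains and at -2.58, -1.58 and -0.24 in KI1, KI2 and KI3. KI1 lay just above the WT brains, and KI3 was 6.01-fold over their mean. The difference was 1.36 (SE 0.57, limma p = 0.052, adjusted p = 1, exact permutation p = 0.1).

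Usp18, the protease that removes ISG15 and damps IFNAR signalling, was at -2.61, -2.54 and -2.63 in WT brains and at -2.39, -1.45 and 0.23 in KI brains. The WT brains spanned less than any gap between KI brains. The difference was 1.39 (SE 0.63, limma p = 0.069, adjusted p = 1, exact permutation p = 0.1). Isg15 itself was at 0.46, 0.56 and 0.61 in WT brains and at 0.82, 1.27 and 2.87 in KI brains, a difference of 1.11 (SE 0.52, limma p = 0.076, adjusted p = 1, exact permutation p = 0.1). Its second probe also put KI3 high, at 2.37 over the WT mean against 2.33 with the first.

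Ddx58 encodes RIG-I, the sensor of viral 5′-triphosphate RNA. It was at -1.14, -1.44 and -1.52 in WT brains and at -1.08, -0.78 and 0.09 in KI brains. KI1 exceeded the highest WT brain by little, and the difference of 0.77 had an SE of 0.33 (limma p = 0.057, adjusted p = 1, exact permutation p = 0.1). Oas2, which makes the 2-5A messenger that activates RNase L, was at -3.28, -2.83 and -2.73 in WT brains and at -2.75, -2.47 and 0.06 in KI brains. Here KI1 lay among the WT brains and KI3 alone was far above them.

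Bst2 and Ifitm3 had the same shape as Oas2. Bst2 was at -0.12, -0.60 and -0.43 in WT brains and at -0.17, -0.04 and 2.33 in KI brains. Ifitm3 was at 1.67, 0.36 and 0.87 in WT and at 0.97, 1.48 and 3.20 in KI, and Irf7 was at -3.81, -4.24 and -4.60 in WT and at -4.29, -3.49 and -1.77 in KI. In these 3 genes the groups overlapped, and KI3 was the highest of the 6 brains. Stat2, which carries the type I signal with IRF9, was at 0.98, 1.52 and 1.56 in WT and at 1.73, 1.35 and 2.18 in KI. Ifi27 was at 4.28, 4.19 and 4.08 in WT and at 4.50, 4.32 and 5.30 in KI. Rsad2 was at -2.59, -2.78 and -2.42 in WT and at -2.76, -1.57 and -0.95 in KI, so KI2 and KI3 were above the WT brains and KI1 was not.

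Tgtp1, Herc6 and Cmpk2 did not share the shape. Tgtp1 was at -6.03, -5.09 and -5.52 in WT brains and at -5.64, -5.22 and -5.38 in KI brains, and was well above background on 5 of the 6. The deviation of Cmpk2 from the WT mean on KI3 was -0.01 with the first probe and -0.51 with the second.

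**Figure D2:**
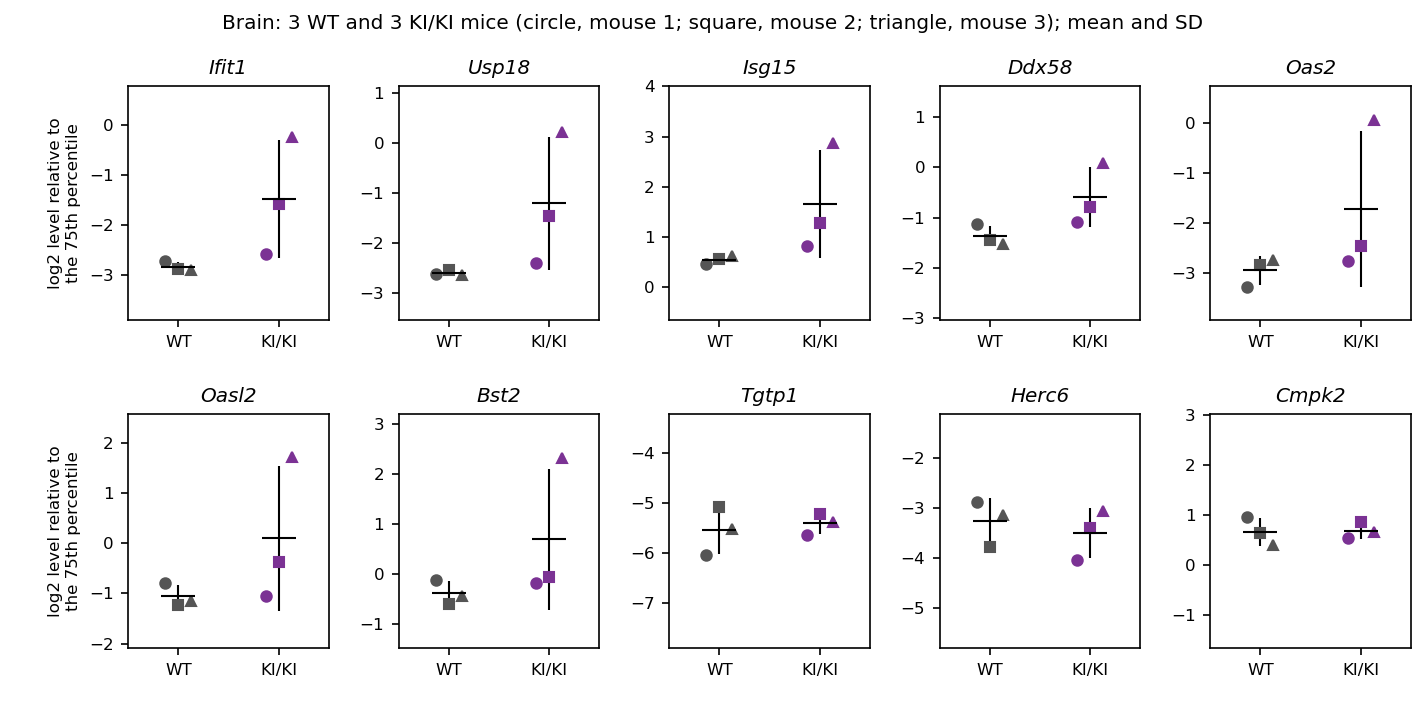
Levels of 10 members in brain of 3 WT and 3 KI/KI mice; the y axis is the log2 level scaled to the array's 75th percentile, every panel spans the same number of log2 units, symbols are mice, and bars are the mean and SD. The KI3 brain (purple triangle) is far above the other brains for Ifit1, Usp18, Isg15, Ddx58, Oas2, Oasl2 and Bst2, and lies among them for Tgtp1, Herc6 and Cmpk2.

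Taken mouse by mouse, the brain of KI3 carried most of the difference. Relative to the WT mean of the tissue, the 36 members on this array ranged from -0.01 to 3.01 with a median of 1.66, or 3.16-fold, where the median of all probes was -0.12. Above the WT mean were 35 members, above all 3 WT brains 32 (19.5% of all probes), and below all of them 0 (38.3%). By more than 0.5 on the log2 scale 33 members were higher, against 16.4% of all probes, and by more than 1 there were 28, against 6.70%. KI3 was the highest of the 6 brains for 32 members, as it was for 16.5% of all probes. KI2 had a median of 0.34 with 24 members above all WT brains (22.2% of all probes), and KI1 a median of 0.08 with 10 above (23.4%) and 5 below (15.6%). For KI1 these shares of the members were near those of all probes.

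Every role took part on the KI3 brain. The median deviation from WT was 2.33 for the ISG15 system, 2.23 for the 9 antiviral effectors with a probe, 1.80 for the PARP and DTX3L complex, 1.61 for the sensors, 1.52 for the guanylate-binding proteins, 1.30 for the transcription factors and 0.99 for the IRG GTPases, and it was 2.22 for the 5 members outside these roles (Ifi44, Ifi27, Xaf1, Trim30a and Rtp4). Second probes gave 1.48 against 1.45 for Ddx58 and 2.95 against 2.40 for Zbp1. They gave larger values for Iigp1, 2.27 against 0.90, and Gbp6, 2.52 against 1.03. Of the second probes tested, 6 of 8 had the same sign of difference in brain as the first, 9 of 11 in liver, 8 of 11 in heart and 9 of 11 in muscle.

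**Figure D3:**
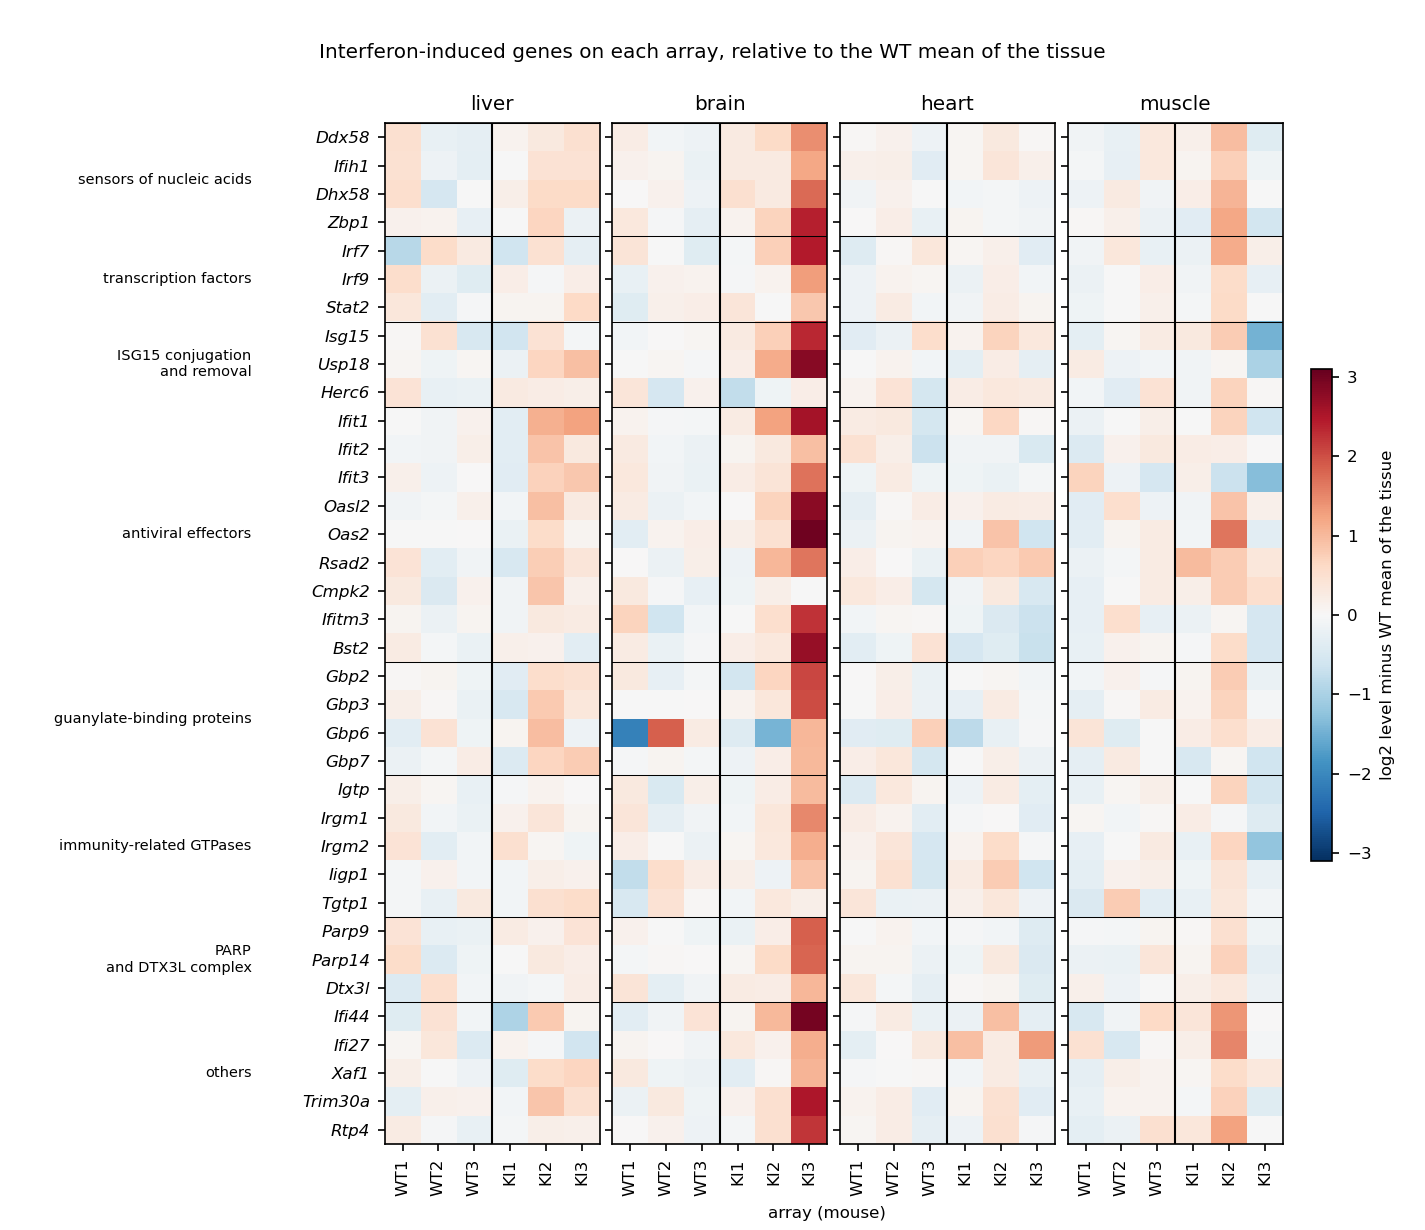
Each of the 36 members (rows, grouped by role) on each of the 24 arrays (columns, 4 tissues with 3 WT and 3 KI/KI mice); the color is the log2 level minus the WT mean of the tissue, with red above and blue below. The KI3 column of brain is red in nearly every row (35 of 36 members above the WT mean), and the KI2 column of muscle is next (34 of 36).

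Markers of other cells moved on the same brain array. All 6 macrophage and microglia markers lay above all WT brains on KI3, with a median deviation of 1.75 and a summed log2 level of 6.65 against 5.18 to 5.56 in WT brains, 5.25 in KI1 and 5.50 in KI2. Of 5 leukocyte markers 4 lay above all WT brains, with a sum of 5.22 against 4.06 to 5.05. The fibroblast sum was 5.06 against 3.16 to 4.18, with 3 of 4 markers above all WT brains and a median deviation of 2.10. Endothelial markers summed to 1.59 against 1.01 to 1.36, and their median deviation was -0.06. T and NK cell markers were at 0.49 against 0.55 to 1.01, neutrophil markers at 0.74 against 0.47 to 2.33, and the brain's own markers at 8.13 against 8.19 to 8.35. Within that last list Gfap, an astrocyte marker, was at 5.41 on KI3 against 2.97, 1.98 and 2.67 in WT brains, 2.82 in KI1 and 3.36 in KI2, while the neuronal genes Snap25 and Syt1 and the myelin gene Mbp lay below all WT brains on KI3, Snap25 at 5.86 against 6.71, 6.26 and 6.29. The part of these cells in the levels of the interferon-induced genes was not tested, and in whole tissue fewer cells of a type and less RNA per cell cannot be told apart.

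**Figure D4:**
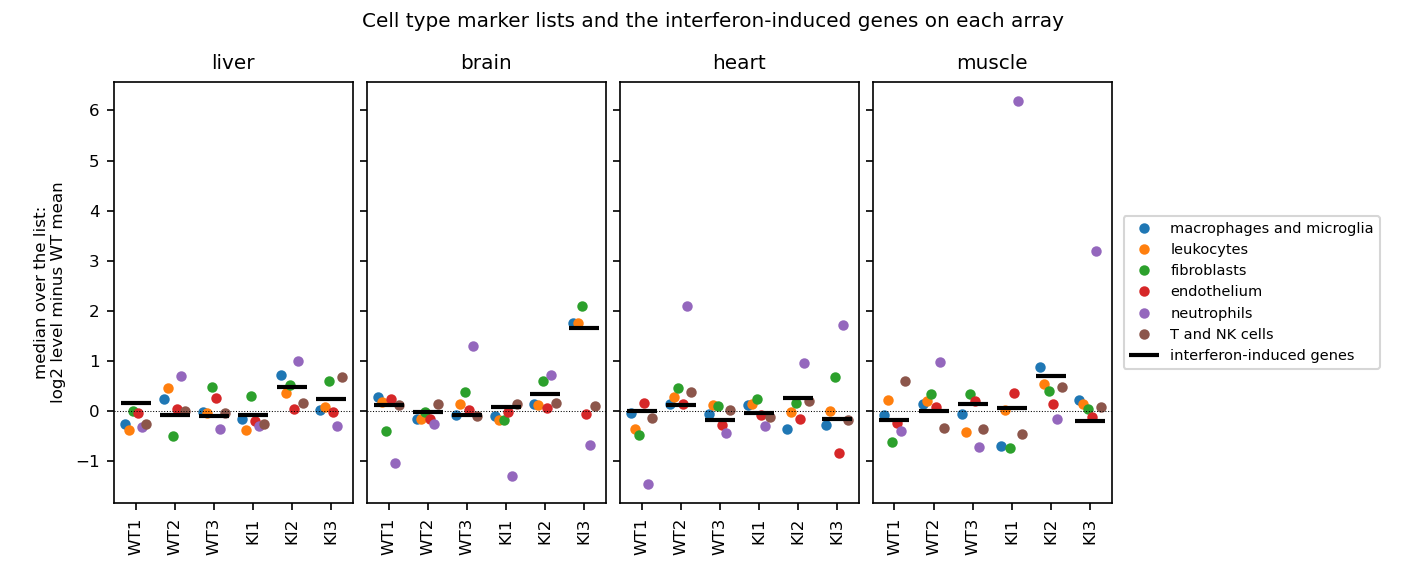
Median deviation of 6 marker lists (colored points) and of the interferon-induced genes (black bars) on each array; the y axis is the log2 level minus the WT mean of the tissue, and columns are mice within tissues. On the KI3 brain the fibroblast list lies at 2.10 and the macrophage and leukocyte lists at 1.75, where the members' median is 1.66. The neutrophil list reaches 6.19 on KI1 muscle, where the members' median is 0.05.

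In muscle the array that stood out was that of KI2. The members' median deviation was 0.69, or 1.61-fold, with 34 above the WT mean, 29 above all WT muscles (24% of all probes) and 1 below (37.8%). By more than 0.5 there were 27, against 14.5% of all probes, and KI2 was the highest of the 6 muscles for 28 members, against 17.5% of all probes. The muscle of KI3 ran the other way, with a median of -0.19, 3 members above (23.2% of all probes) and 18 below all WT muscles (41%). All 6 neutrophil markers lay above all WT muscles on this array, and their part was not tested. KI1 had a median of 0.05. Across mice the KI minus WT median was 0.16 with 29 of 36 above 0 (all probes -0.07), and it turned to -0.07 with 12 of 36 above 0 without KI2.

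The roles on the KI2 muscle ran from 1.00 for the sensors, 0.69 for the ISG15 system, 0.68 for the effectors, 0.61 for the guanylate-binding proteins and 0.60 for the transcription factors to 0.51 for the PARP and DTX3L complex and 0.39 for the IRG GTPases, with 1.24 for the 5 members outside these roles. Oas2 was at -0.04, 0.38 and 0.55 in WT muscles and at 0.22, 1.95 and -0.03 in KI muscles. Ifi27 was at 5.93, 4.96 and 5.51 in WT and at 5.65, 6.99 and 5.40 in KI. Both had KI2 alone above the WT muscles. Irgm2 was at 2.50, 2.74 and 3.02 in WT and at 2.54, 3.42 and 1.53 in KI, so KI2 was the highest and KI3 the lowest. Ifitm3, at 3.23, 3.45 and 2.87 in KI against 3.15, 3.92 and 3.15 in WT, did not follow. On the KI2 muscle all 6 macrophage markers lay above all WT muscles, with a sum of 4.89 against 4.11 to 4.35, and so did all 5 adipocyte markers, with a sum of 10.4 against 7.58 to 9.99. Their part in the result was not tested.

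Rsad2 was the member of muscle in which all KI mice lay above all WT mice, the only 1 of 36. Of all probes 2.36% did so, a similar share. Rsad2 was at -1.06, -0.95 and -0.63 in WT and at 0.10, -0.08 and -0.52 in KI. KI3 lay close to the highest WT muscle. The difference was 0.71 (SE 0.24, limma p = 0.021, adjusted p = 0.94, exact permutation p = 0.1). KI1 and KI3 were the 2 muscles high in Myl2 and neutrophil markers. The difference was 0.58 without KI1, no longer at an unadjusted limma p under 0.05, and 0.89 without KI3. No member lay below in all KI muscles (4.09% of all probes). Cmpk2 was at -1.67, -1.42 and -1.17 in WT and at -1.23, -0.62 and -0.90 in KI, a difference of 0.50 (SE 0.24, limma p = 0.077, exact permutation p = 0.2). Rtp4, a chaperone for receptors at the cell surface, was at 1.05, 1.18 and 1.85 in WT and at 1.72, 2.60 and 1.36 in KI, a difference of 0.53 (SE 0.37, limma p = 0.20, exact permutation p = 0.3). Both overlapped between genotypes.

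**Figure D5:**
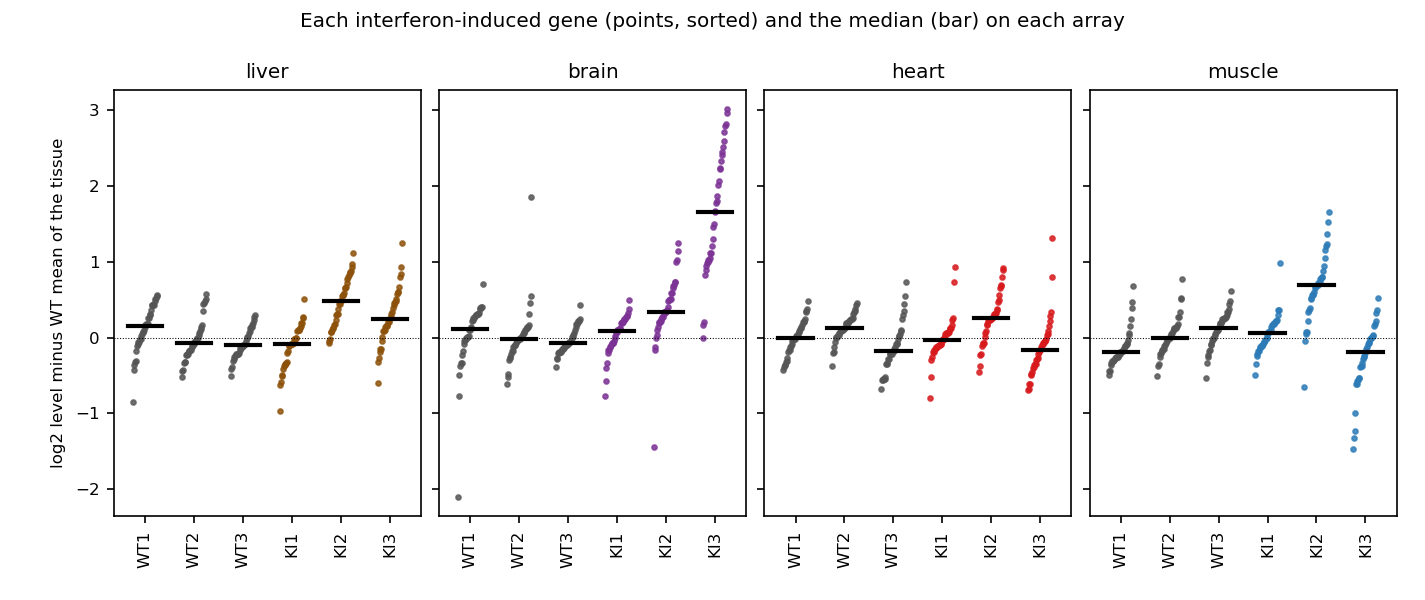
The 36 members on each array as sorted points, with the median as a bar; the y axis is the log2 level minus the WT mean of the tissue, gray marks WT mice and color KI/KI mice. The KI3 brain is shifted as a whole (median 1.66), KI2 muscle and KI2 liver less (0.69 and 0.48). WT points lie around 0 because their own mean was subtracted, which also narrows their spread. Single WT arrays still lay off 0, with 30 of 36 members above it on WT2 heart and 7 on WT1 muscle.

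In liver the 2 KI mice of 2 months lay above WT and the KI mouse of 5 months did not. KI2 had a median deviation of 0.48 with 21 members above all WT livers (14.1% of all probes) and 0 below (20.9%). KI3 had 0.25 with 15 above (19.4%) and 2 below (24.3%), and KI1 had -0.08 with 1 above (20.2%) and 13 below (14.4%). The KI minus WT median was 0.22 with 31 of 36 above 0 (all probes -0.01), and it was 0.37 without KI1 and 0.09 without KI2. In 0 members did all KI livers lie above (2.78% of all probes) or below (3.07%) all WT livers. At an unadjusted p under 0.05 there were 6 members without KI1, against 2.8% of all probes, and 4 without WT1, against 10.8%.

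Ifit1 in liver was at -0.21, -0.29 and -0.07 in WT and at -0.51, 0.92 and 1.06 in KI, a difference of 0.68 (SE 0.42, limma p = 0.15, exact permutation p = 0.4). Usp18 was at 2.32, 2.12 and 2.32 in WT and at 2.08, 2.91 and 3.18 in KI, a difference of 0.47 (SE 0.30, limma p = 0.17, exact permutation p = 0.4). For both, KI1 was the lowest of the 6 livers and KI2 and KI3 the highest. Dhx58, which encodes the RIG-I relative LGP2, was at 1.74, 0.70 and 1.20 in WT and at 1.41, 1.81 and 1.82 in KI, a difference of 0.46 (SE 0.30, limma p = 0.17, exact permutation p = 0.2). Ifit2, at -1.73, -1.76 and -1.46 in WT and -1.99, -0.77 and -1.34 in KI, and Tgtp1, at -3.52, -2.95 and -2.86 in KI, had KI1 below KI2 and KI3. Bst2, the member with the widest tissue range, was at 6.68, 6.65 and 6.21 in KI livers and overlapped WT, as did Ifi27 at 6.82, 6.70 and 6.12. The macrophage sum was 6.31 on KI2 liver against 5.43 to 5.97 in WT, with 5 of 6 markers above all WT livers, and the neutrophil sum was 2.39 against 1.27 to 2.03, also with 5 of 6 markers above. Their part was not tested.

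Heart had no shift over the members, with a KI minus WT median of -0.01 and 16 of 36 above 0 (all probes -0.02). The medians by mouse were -0.03 for KI1, 0.26 for KI2 and -0.16 for KI3. KI2 was the highest of the 6 hearts for 16 members against 12.05% of all probes, and WT2 for 10 members against 6.33%. Rsad2 was the 1 member with all KI hearts above all WT hearts (6.03% of all probes). It was at 3.14, 2.95 and 2.72 in WT and at 3.66, 3.61 and 3.74 in KI, so each genotype kept within a narrow band and the bands did not overlap. The difference was 0.73 (SE 0.20, limma p = 0.0091, adjusted p = 0.65), and the exact permutation p was 0.1. Rsad2 was thus higher in all 3 KI mice in heart and in muscle, whereas in brain and liver KI1 was not above the WT mice. A count of 1 among 36 members is a smaller share than the 6.03% in heart and near the 2.36% in muscle. The counts were therefore no excess over all probes. The difference of Rsad2 between tissues did not pass the interaction test.

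Ifi27 in heart was at 4.49, 4.82 and 5.10 in WT and at 5.73, 5.05 and 6.12 in KI. KI2 lay within the WT hearts, and the difference was 0.83 (SE 0.33, limma p = 0.039, adjusted p = 0.65, exact permutation p = 0.2). Bst2 went the other way, at 2.77, 2.96 and 3.53 in WT and 2.57, 2.72 and 2.39 in KI, a difference of -0.53 (SE 0.26, limma p = 0.084, exact permutation p = 0.1). So did Ifitm3, at 4.42, 4.56 and 4.53 in WT and 4.37, 4.05 and 3.83 in KI, a difference of -0.42 (SE 0.22, limma p = 0.096, exact permutation p = 0.1). These were the 2 members with all KI hearts below all WT hearts, where 8.68% of all probes lay so. The 2 KI hearts highest in adipocyte markers, KI1 and KI3, were also the 2 highest in Ifi27. The WT1 heart was the lowest in Adipoq and in Ifi27, and the part of adipocytes was not tested. The difference of Rsad2 was 0.70 without KI3 and 0.74 without KI1, and that of Ifi27 was 0.59 and 0.78, in both cases no longer at an unadjusted p under 0.05 for Ifi27. Isg15, at 3.07, 3.24 and 3.97 in WT and 3.54, 4.12 and 3.76 in KI, Herc6, at -2.31, -2.20 and -2.24 in KI, and Tgtp1, at -3.63, -3.44 and -3.96 in KI, overlapped between genotypes.

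Other genes of the pathway were read from a list of 68, of which Ifnl2 had no probe, and 0 of them passed the adjusted test in any tissue. Of the interferon genes, Ifnb1, Ifne and Ifna4 were not well above background on any brain array, Ifng was on 1 of 6 and Ifnk on 2 of 6, and Ifnb1 was on 0 of 6 arrays in every tissue. Of the 5 interferon genes tested in brain 2 lay above the WT mean on KI3, as did 40.4% of all probes. All 6 receptor genes lay above the WT mean on KI3 brain, with a median deviation of 0.45.

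Induced genes outside the 38 moved with them on the same arrays. Of 30 listed, 28 were tested in brain, and on KI3 their median deviation was 1.20 with 25 above all WT brains (19.5% of all probes). On KI2 muscle the median was 0.68, with 22 of 29 above all WT muscles (24% of all probes). On the livers of KI2 and KI3 the median was 0.23 and 0.25. Cxcl10, a chemokine that draws T cells, lay 4.49 above the WT mean on KI3 brain and 2.86 above on KI2 brain (difference 2.46, limma adjusted p = 1). Ifi204, a DNA sensor, lay 4.28 above on KI3, Oas1a 3.18 above and Oasl1 2.89 above. From other lists of the pathway, the myeloid factor Irf8 lay 1.97 above on KI3 brain and the feedback inhibitor Socs3 1.69 above. In muscle the 2 negative regulators, Socs1 and Socs3, had a median deviation of 3.35 on KI2 and -2.88 on KI3. Tgtp2 was the 1 of the 28 induced genes at an unadjusted limma p under 0.05 in brain, where 2.62% of all probes were. Its difference was 0.86 (limma adjusted p = 1). Tgtp2 lay 1.22 above the WT mean on KI3, where the probe of its near-copy Tgtp1 lay within the WT brains.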

How the data were processed

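Total RNA (200 ng) of 24 tissue samples was labelled with Cy3 and hybridised to one-color Agilent mouse arrays. Per the file headers, the authors scanned them with Agilent Feature Extraction 12.0.3.1, and the deposited spot values are intensity units, background-subtracted and detrended in the processed signal. The series' value table was used as an alternative; its deposited values are a score, the z-score within each array of the log10 processed signal. RNA was isolated with one kit from brain and liver and with another from heart and muscle. Each of 3 slides held more than 1 tissue and both genotypes.

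Control and outlier spots were removed, spots of a probe averaged, and log2 processed signal scaled to the 75th percentile of the array. A member was read by the probe with the highest mean level over all arrays; second probes are given apart. Genotypes were compared within a tissue with limma 3.58.1 (R 4.3.3) on probes that 3 or more of the 6 arrays detected (well above background), tissues within a genotype on probes detected on all 3 arrays of a tissue, and p-values were adjusted by Benjamini-Hochberg over all probes. The number of arrays limits precision. The scripts were tested on simulated data. Members, gene lists and tests were chosen with earlier results of these data known. Named genes were, per tissue, the 3 members with the smallest genotype p and the 3 with the highest and 2 with the lowest WT level. To these came the 4 with the widest and 2 with the narrowest tissue range and the 2 with the smallest interaction p. Isg15 and Rsad2 in brain, Oas2 in brain and muscle, and the pathway genes named were chosen after their values were seen. The same 6 mice gave all tissues, so mouse was a block in one alternative; deviations of the same mouse correlated between tissues from -0.318 to 0.382, with 17 of 36 pairs over 0.1. Alternatives were quantile normalization, normexp correction (on median spot signals, since mean spot signals were not used here), the value table, filters, all 24 arrays in one fit, slide, age and mouse blocks, and leaving out each mouse.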

Additional observations from a re-analysis of the deposited data

How the results depend on the processing

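Of the values recomputed under alternatives for the counts and medians of the report, 283 stayed within 1.5 times or 1 SD of the report's value and 36 moved, and 0 probes passed the adjusted genotype test under any. Of the median genotype differences, that in muscle was -0.07 without KI2, the sign turned, and that in heart, near 0, also changed sign. Members at an unadjusted p under 0.05 in brain, 0 in the report, are given here with the share of all probes in brackets. They numbered 2 with quantile normalization (2.52%), 4 with normexp (1.61%) and 2 with the value table's z-scores (2.37%). There were 2 on probes above background on every array (2.6%) and 2 with a trended robust prior (2.18%). All 24 arrays in one fit gave 16 (2.53%), age as a block 1 (2.64%) and the slide as a block 1 (2.64%). In heart, 2 in the report, there was 1 with all 24 arrays in one fit (7.95%) and 1 with age as a block (8.53%). In muscle, 1 in the report, there were 0 with all 24 arrays (4.07%) and 2 with age as a block (3.13%). Between WT tissues the slide as a block gave 16 members in liver against heart, 14 in liver against muscle and 12 in heart against muscle. Quantile normalization moved the median WT level of the 36 members in liver to 1.78 from 1.99. The causes were not tested.

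The mouse as a replicate block over all 24 arrays is the pairing that the design gives. It left 16 members in brain (2.52% of all probes), 1 in heart (8.02%) and 0 in muscle (4.08%) at an unadjusted p under 0.05. In that fit 0 passed the adjusted test, and the counts were those of the fit of all 24 arrays without the block. Both fits pool 1 spread per probe over all groups, so their p-values in brain do not measure the spread among brains alone. The limma p of Rsad2 with the block was 0.058 in heart and 0.064 in muscle. No other count differed from the report's by over 1.5 times with the block, and the mouse correlation it used was 0.026.

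Leaving out 1 mouse at a time moved the members at an unadjusted p over 0 to 6 in liver (6 without KI1, with 2.8% of all probes), 0 to 12 in brain (12 without KI1, with 2.89%), 1 to 4 in heart (4 without WT3, with 9.8%) and 0 to 1 in muscle. It moved the members with all KI brains above all WT brains over 9 to 24, and those called in heart against muscle over 12 to 17. Rsad2 in muscle had limma p from 0.0072 to 0.078, and Ifi27 in heart from 0.0095 to 0.12. The alternatives for these 2 genes, Rsad2 in heart, Terf2ip, the KI tissues, the single arrays and the separated brain members were chosen after seeing the data. A mouse has 1 array per tissue, so no spread within a mouse was measured.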
